A study of Mus musculus with 8 samples.

Results

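WNT target and feedback genes were followed from normal mouse liver to liver tumours driven by human c-MYC. The members were chosen by name, as WNT and beta-catenin target genes of pericentral liver: Axin2, Lgr5, Tbx3, Rnf43, Znrf3, Nkd1, Notum, Lect2, Sp5 and Tcf7. Of these 10 genes, 9 had a probe set assigned to that gene alone, out of 19937 genes tested, and Tcf7 was not analysed here. Each of the 9 had 1 such probe set, so no choice between probe sets was needed. Expression was measured on 8 single-colour Affymetrix mouse gene arrays, 1 per sample, in 4 control livers and 4 tumours. The tumours arose with liver-specific overexpression of human c-MYC, driven by the CEBPB-LAP promoter, which is active in hepatocytes, and controlled by doxycycline, and were collected at the humane endpoint. The controls were normal livers of matched mice. Whether the controls carried the transgene or received doxycycline, and the strain, age and sex of the mice, are not given in the sources used here. The labels number the samples without saying which mouse each came from, so the p-values below measure the spread between these samples.

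WNT ligands bind Frizzled and LRP receptors and keep beta-catenin from being degraded, and beta-catenin then activates target genes together with TCF and LEF factors. In liver the pathway is most active in hepatocytes around the central vein, where endothelial cells supply WNT ligands and R-spondin, and it sets the pericentral gene programme. Many of its targets feed back on it: AXIN2 rebuilds the complex that degrades beta-catenin, RNF43 and ZNRF3 remove WNT receptors from the cell surface, NKD1 acts on Dishevelled, and NOTUM inactivates WNT ligands outside the cell.

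The members did not move as a block. Lect2, Lgr5, Tbx3, Rnf43 and Notum were lower in tumours, Znrf3 was higher, and Axin2, Nkd1 and Sp5 did not pass the threshold, an adjusted p of 0.05 in limma with Benjamini-Hochberg adjustment over all genes tested. Thus 5 of 9 members were lower, against 12.7% of all genes, and 1 of 9 was higher, against 16.2% of all genes. The members and the lists below were chosen with earlier results of these data known. Such comparisons with all genes therefore describe the lists and do not test them. All 4 tumours lay below all 4 controls for 6 members and above them for 1, and the groups did not overlap for 30.2% of all genes. The median log2 change, tumours minus controls, was -0.63 over the 9 members and -0.04 over all genes. Values are on the log2 scale of the deposited table, so a difference of 1 is a doubling, and levels of different genes are not compared. As a guide to background, the 95th percentile of the group means of 1027 olfactory receptor genes, which liver is not known to use, was 6.26 in controls and 6.12 in tumours. A group mean at or under it is called not above background.

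TCF and LEF factors bind DNA at short sites around the letters CTTTG. RefSeq promoter windows of GRCm38.p6, from 250 bases before to 50 after a transcript start, were at hand for 6 of the 10 members, in 8 windows, and were searched on both strands for CTTTGAT. The variant CTTTGAA was searched as well, as were the forms CTTTGTA and, last, CTTTGTT; no match overlapped another. Only the windows of Lect2 and Sp5, 2 of the 8, held a match, and 16.9% of 32851 windows of the same length did. CTTTGAT itself was in both and in 3.73% of all windows. Lect2 had the largest change of the members and Sp5 none that passed. Sp5 had neither mean above background, so a difference in it was not detectable. These 2 promoters are shown because they carry the same letters. Both run 5′ to 3′ on the gene's own strand up to the base before the gene's outermost start, with the matches in capitals; Lect2 is chr13:56548560-56548788 on the minus strand and Sp5 is chr2:70474673-70474922 on the plus strand.
Lect2: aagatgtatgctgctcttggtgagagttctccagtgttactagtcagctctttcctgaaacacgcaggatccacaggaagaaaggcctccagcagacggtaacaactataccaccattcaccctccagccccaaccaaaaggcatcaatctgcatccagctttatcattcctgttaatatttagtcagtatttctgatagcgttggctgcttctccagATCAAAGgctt
Sp5: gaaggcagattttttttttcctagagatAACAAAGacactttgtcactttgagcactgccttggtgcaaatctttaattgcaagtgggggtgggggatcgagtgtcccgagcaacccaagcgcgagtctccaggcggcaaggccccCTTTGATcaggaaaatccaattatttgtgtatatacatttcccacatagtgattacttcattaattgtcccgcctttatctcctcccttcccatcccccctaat
In Lect2 the match lay on the opposite strand, from -32 to -26 relative to the start of the transcript whose window held it, which lies inside the gene's outermost start, and in Sp5 the matches lay from -222 to -216 on the opposite strand and from -104 to -98 on the gene's strand. A match is a description of the letters and does not show binding.

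Lect2 encodes a protein secreted by hepatocytes, and it is a long-known beta-catenin target of liver. It read 10.42, 10.56, 11.06 and 10.95 in control livers 1 to 4 and 6.52, 5.94, 5.20 and 6.03 in tumours 1 to 4. The groups were far apart, and the tumour values were spread more widely than the control values (10.75 ± 0.30 against 5.92 ± 0.54, SD, n = 4 and 4). The log2 change was -4.83 (SE 0.25, adjusted p = 3.5e-07 in limma). The tumour mean was not above background, so the fall is best stated as at least 24.7-fold, taken from the control mean to the background level of tumours.

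Lgr5, a receptor for R-spondins and a marker of hepatocytes next to the central vein, read 6.96, 6.53, 7.00 and 6.99 in control livers 1 to 4. In tumours 1 to 4 it read 5.54, 5.39, 5.20 and 5.74. Control liver 2 was the lowest control, yet all tumours lay below it. The log2 change was -1.40 (SE 0.15, adjusted p = 4.3e-05 in limma), and since the tumour mean of 5.47 ± 0.23 (SD, n = 4) was not above background, the fall was at least 1.68-fold. Lgr4, a related R-spondin receptor outside the list of members, read 8.57 to 9.66 in controls and 8.74 to 8.87 in tumours and did not pass (log2 change -0.16, SE 0.21, adjusted p = 0.646 in limma). Its sign depended on control liver 1, without which the change was 0.08.

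The paralogues Rnf43 and Znrf3, which encode membrane ubiquitin ligases with the same receptor substrates, went opposite ways. Rnf43 read 6.67, 7.06, 6.71 and 7.08 in control livers 1 to 4 and 5.80, 5.85, 5.98 and 6.12 in tumours 1 to 4. Its groups did not overlap, and the log2 change was -0.94 (SE 0.13, adjusted p = 0.00026 in limma). Its tumour mean of 5.94 was not above background, which makes the fall at least 1.69-fold. Znrf3 read 6.84, 6.67, 6.62 and 6.84 in control livers 1 to 4 and 7.44, 7.48, 7.24 and 7.05 in tumours 1 to 4. It was above background in both groups, all 4 tumours exceeded all 4 controls, and it rose 1.47-fold (log2 change 0.56, SE 0.12, adjusted p = 0.0043 in limma).

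The other feedback inhibitors were lower by smaller amounts or did not pass. Notum, a secreted enzyme that removes the lipid from WNT ligands, read 6.75, 6.78, 6.58 and 7.17 in control livers 1 to 4. It read 6.04, 6.18, 6.17 and 6.36 in tumours 1 to 4. Every tumour was below every control, the tumour mean of 6.19 stayed just above background, and the level fell 1.55-fold (log2 change -0.63, SE 0.13, adjusted p = 0.0045 in limma). Axin2, often used as the readout of beta-catenin activity, read 7.02, 6.98, 6.98 and 7.12 in control livers 1 to 4. It read 6.65, 6.73, 6.68 and 6.96 in tumours 1 to 4. The groups did not overlap, but tumour 4 came close to the lowest control, and the difference did not pass (log2 change -0.27, SE 0.10, adjusted p = 0.066 in limma). Its unadjusted 95% interval ran from -0.49 to -0.05. The Axin2 value sits at the threshold: it passed in 4 of 15 alternative settings, with adjusted p between 0.0165 and 0.166 in limma over all 15, and without tumour 4 the change was -0.34 with an adjusted p of 0.0165. Nkd1, an inhibitor that binds Dishevelled, read 6.58, 6.82, 6.97 and 6.86 in controls and 6.41, 6.52, 6.56 and 6.77 in tumours, in sample order. Its groups overlapped and it did not pass (log2 change -0.24, SE 0.12, adjusted p = 0.157 in limma, unadjusted 95% interval -0.50 to 0.01).

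The transcription factors differed from each other. Tbx3, a T-box repressor, read 7.14, 7.74, 7.44 and 7.69 in control livers 1 to 4 and 6.34, 6.28, 6.26 and 6.67 in tumours 1 to 4. It was above background in both groups, the groups did not overlap, and the level fell 2.16-fold (log2 change -1.11, SE 0.15, adjusted p = 0.00025 in limma). Sp5, a zinc-finger factor induced by WNT in many cell types, read 5.81 to 6.16 in controls and 5.77 to 6.06 in tumours. The groups overlapped almost fully and neither mean was above background, so a difference was not detectable here (log2 change -0.06, SE 0.11, adjusted p = 0.768 in limma). The unadjusted 95% interval for Sp5 was -0.31 to 0.19.

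**Figure D1:**
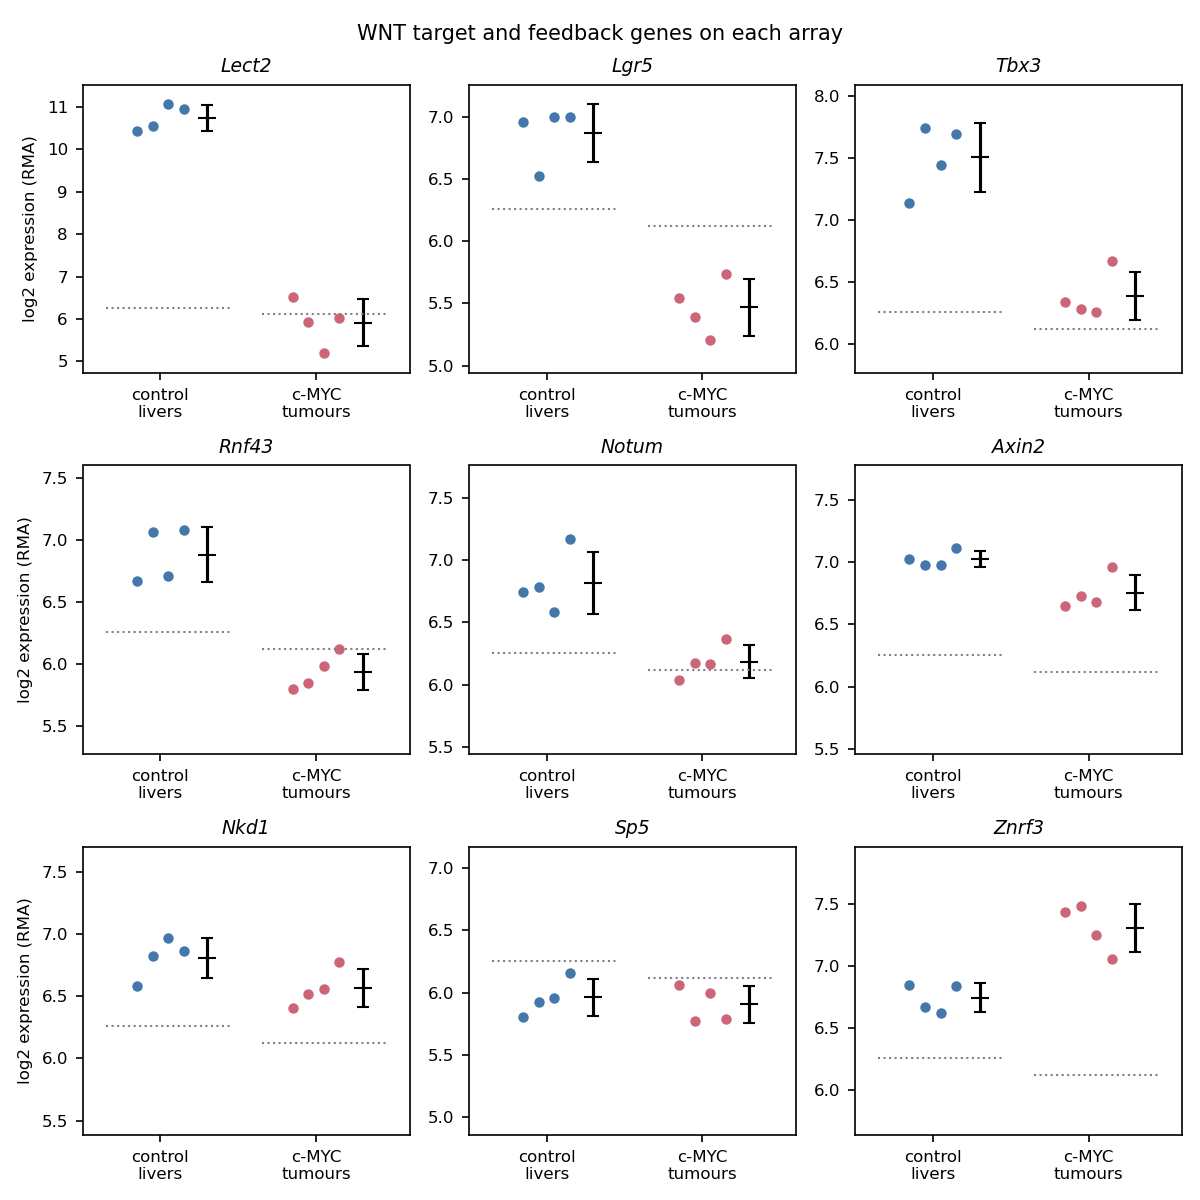
Log2 expression of the 9 measured WNT target genes on each array, with points for single arrays in sample order, black marks for the mean ± SD of 4 arrays, and dotted lines for the background level of 6.26 in controls and 6.12 in tumours; vertical scales differ between panels. Lect2 falls from about 10.75 to the background line, Znrf3 alone lies higher in tumours, and Nkd1 and Sp5 overlap.

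The 4 tumours also differed among themselves across the members. Tumour 4 was the tumour nearest to the control mean for 7 of the 9 members (Axin2, Lgr5, Tbx3, Rnf43, Znrf3, Nkd1 and Notum), the exceptions being Lect2 and Sp5. Over all 5757 genes called, tumour 4 was nearest for 32.5%, and for 25.01% after quantile normalisation, with the members' count still 7 of 9. The 9 members include Axin2, Nkd1 and Sp5, which were not called, so their count and these shares rest on unlike sets. Tumour 4 had the narrowest spread of values among the tumours, with an interquartile range of 2.09 against 2.28 to 2.42, and the part this plays in the members' values was not tested. Every call among the members kept its direction and its side of the threshold without tumour 4, except Axin2 as given above.

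The genes whose array patterns lay nearest to each called member were found by the root mean square difference over the 8 arrays, after centring each gene on its own mean. Predicted genes, genes with clone or accession names, and olfactory or vomeronasal receptors were left out of this search. The nearest to Lgr5 were Cd59b, Med12l and Phldb2, at 0.12 to 0.15. Tbx3 was nearest to Spg20, Rnf43 and Dcstamp, at 0.11 to 0.15, so that a member appeared beside another member there and nowhere else. For Rnf43 the nearest were Arhgap24, Tmtc2 and Hsd17b11, at 0.10 to 0.11. Notum lay nearest to Pfkm, Marchf2 and Serinc2, at 0.06 to 0.08, and Znrf3 to Clcn3, Fam133b and Chrnb1, at 0.07 to 0.08. Lect2 lay nearest to Ugt3a1, Mettl7b and Ugt3a2, at 0.38 to 0.44. The measure takes in both the shift between groups and the spread within them, and these were not separated.

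The supply of WNT signals was represented by 25 genes for ligands, R-spondins and secretion factors. None was higher in limma, also at an unadjusted p of 0.05, and 4 were lower. This is 16.0% called, all of them lower, near the 12.7% of all genes that were lower. In either direction 28.9% of all genes were called. Neither mean was above background for 9 of the 25, against 35.5% of all genes. Rspo3, the R-spondin made by central vein endothelium and stellate cells, read 6.73, 7.19, 7.30 and 7.05 in control livers 1 to 4 and 5.46, 5.72, 5.57 and 5.45 in tumours 1 to 4. The groups were clearly separated, and the fall was at least 1.93-fold to the background level (log2 change -1.52, SE 0.13, adjusted p = 1.2e-05 in limma). Wnt2, which liver endothelium makes, read 6.15 to 6.53 in controls and 5.94 to 6.16 in tumours. The Wnt2 groups overlapped, its tumour mean was not above background, and its call (log2 change -0.39, SE 0.11, adjusted p = 0.022 in limma) was lost in 6 of 8 fits that left out 1 array, namely control livers 2, 3 and 4 and tumours 1, 2 and 3 (adjusted p 0.0528 to 0.0620). Wnt9b, another ligand of liver endothelium, did not pass (6.58 to 6.63 in controls and 6.55 to 6.92 in tumours, log2 change 0.07, SE 0.10, adjusted p = 0.687 in limma). Wnt5a and Wnt16 also passed as lower (log2 changes -0.51 and -0.39, SE 0.13 and 0.12, adjusted p = 0.012 and 0.033 in limma), but neither was above background in either group, and Wnt16 no longer passed when control livers 1 and 2 or tumours 1, 2 and 3 were each left out (adjusted p 0.063 to 0.096) or with the replicate block (0.095).

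Endothelial markers were measured beside Rspo3. Of 9, 4 were lower, against 12.7% of all genes, 5 did not pass and none was higher, and the mean level of the 9 was 7.04 to 7.55 in controls and 6.59 to 6.93 in tumours. Those lower were the sinusoidal genes Clec4g and Stab2 (log2 changes -2.71 and -1.53, SE 0.15 and 0.17), with -1.42 for Clec4g as the mean of its probe sets, and the receptor genes Kdr and Tek (-1.10 and -0.76, SE 0.20 and 0.25), though Tek did not pass when control livers 2, 3 and 4 and tumours 1, 2 and 4 were left out singly (adjusted p 0.075 to 0.123 in limma), when array medians were subtracted (0.057) and with an intensity trend (0.052). The sinusoidal genes Stab1 and Lyve1 did not pass (log2 changes -0.25 and 0.22, SE 0.11 and 0.20, adjusted p = 0.124 and 0.482 in limma), nor did the general endothelial genes Pecam1 and Cdh5 (0.34 and -0.05, SE 0.19 and 0.21). Thbd did not pass either and had neither mean above background. The Clec4g tumour mean of 6.15 lay just above the tumour background of 6.12, so the size of its fall is less certain. Stellate and fibroblast markers, of which 3 of 7 were lower and 1 higher (57.1% called, against 28.9% of all genes), had mean levels of 7.18 to 7.36 in controls and 6.35 to 6.71 in tumours. In whole tissue, fewer cells of a type and less RNA per cell cannot be told apart, and the part of either list in the Rspo3 value was not tested. Hepatocyte markers remained bright, with mean levels of 12.66 to 12.84 in controls and 11.73 to 12.36 in tumours. All 6 hepatocyte markers measured were lower, against 12.7% of all genes. Of 6 macrophage markers 1 was higher and 2 lower, and of 4 bile duct markers 1 was higher and 1 lower, so that 3 of 6 and 2 of 4 were called, against 28.9% of all genes. T cell markers passed in none of 8 cases and B cell markers in none of 3 by limma, against 28.9% of all genes. None of these T and B cell markers reached an unadjusted p of 0.05.

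Receptors were called in both directions. Of 17, 2 were higher and 4 lower, 35.3% called against 28.9% of all genes. Ryk, a WNT co-receptor, read 8.02 to 8.22 in controls and 8.62 to 8.85 in tumours, and rose 1.56-fold (log2 change 0.64, SE 0.09, adjusted p = 0.00036 in limma). Lrp6, the co-receptor that starts beta-catenin signalling, read 9.07 to 9.41 in controls and 9.61 to 9.77 in tumours, and rose 1.39-fold (0.48, SE 0.10, adjusted p = 0.0042 in limma). Both rises were small and both were without overlap. Among Frizzled genes Fzd1 was lower (6.78 to 6.97 in controls and 6.25 to 6.54 in tumours, log2 change -0.51, SE 0.10, adjusted p = 0.0033 in limma). Ror1, a receptor for WNT5A, changed by -0.42 (SE 0.11, adjusted p = 0.015 in limma). Fzd4 and Fzd7 changed by -0.43 and -0.48 (SE 0.14 for each), and both calls were lost when array medians were subtracted (adjusted p = 0.062 and 0.051 in limma) and without some single arrays. For Fzd4 these were control livers 1 and 3 and tumours 1, 3 and 4 (0.059 to 0.098), and for Fzd7 control livers 3 and 4 and tumours 2, 3 and 4 (0.054 to 0.077).

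None of 15 secreted and membrane antagonists, such as the DKK and SFRP proteins, passed in limma, against 28.9% of all genes. Of the 15, 10 had neither mean above background, against 35.5% of all genes. The changes of the 15 lay between -0.18 and 0.21, the largest for Frzb, which was not above background (SE 0.14, adjusted p = 0.325). None of the 15 reached an unadjusted p of 0.05 either.

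Of 17 Dishevelled and destruction complex genes 3 were higher, 17.6% against 16.2% of all genes and thus near the background. None was lower in limma, although Gsk3b, a kinase that marks beta-catenin for degradation, had an unadjusted p under 0.05 (log2 change -0.24, SE 0.09, adjusted p = 0.093) and passed after quantile normalisation (adjusted p = 0.035). Tnks2 and Tnks, the tankyrases that mark AXIN for degradation, were higher by 1.28 (SE 0.10, adjusted p = 6.7e-06 in limma) and 0.69 (SE 0.10, adjusted p = 0.00033) on the log2 scale. Tnks2 read 9.33 to 9.63 in controls and 10.64 to 10.88 in tumours. Btrc, the adaptor that hands phosphorylated beta-catenin to the ubiquitin system, was higher by 0.48 (SE 0.11, adjusted p = 0.0062 in limma).

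Beta-catenin itself, Ctnnb1, read 9.27, 8.73, 9.33 and 9.46 in control livers 1 to 4 and 9.83, 9.37, 9.72 and 9.39 in tumours 1 to 4. The groups overlapped and it did not pass (log2 change 0.38, SE 0.17, adjusted p = 0.134 in limma). Of the 15 genes for beta-catenin and its nuclear partners, 4 were higher and 2 lower, 40.0% called against 28.9% of all genes. Cdc73, a subunit of the PAF complex, rose by 0.84 (SE 0.09, adjusted p = 6.8e-05 in limma), and Bcl9, which bridges beta-catenin to its coactivators, by 0.81 (SE 0.16, adjusted p = 0.0037). Chd8 and the corepressor gene Tle4 were higher by 0.35 and 0.38 (SE 0.09 and 0.12, adjusted p = 0.014 and 0.031 in limma). Tle4 no longer passed when each of control livers 1, 2 and 4 and tumours 1, 2 and 3 was dropped (adjusted p 0.055 to 0.091). Tle3, another corepressor of TCF, changed by -0.47 (SE 0.10, adjusted p = 0.0048 in limma), from just above background to below it. Tcf7l2, the main TCF of hepatocytes, read 8.53 to 8.89 in controls and 8.33 to 8.46 in tumours (log2 change -0.31, SE 0.10, adjusted p = 0.047 in limma). Of 15 alternatives 10 lost this call, every single array left out except control liver 2 among them (adjusted p 0.056 to 0.124).

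**Figure D2:**
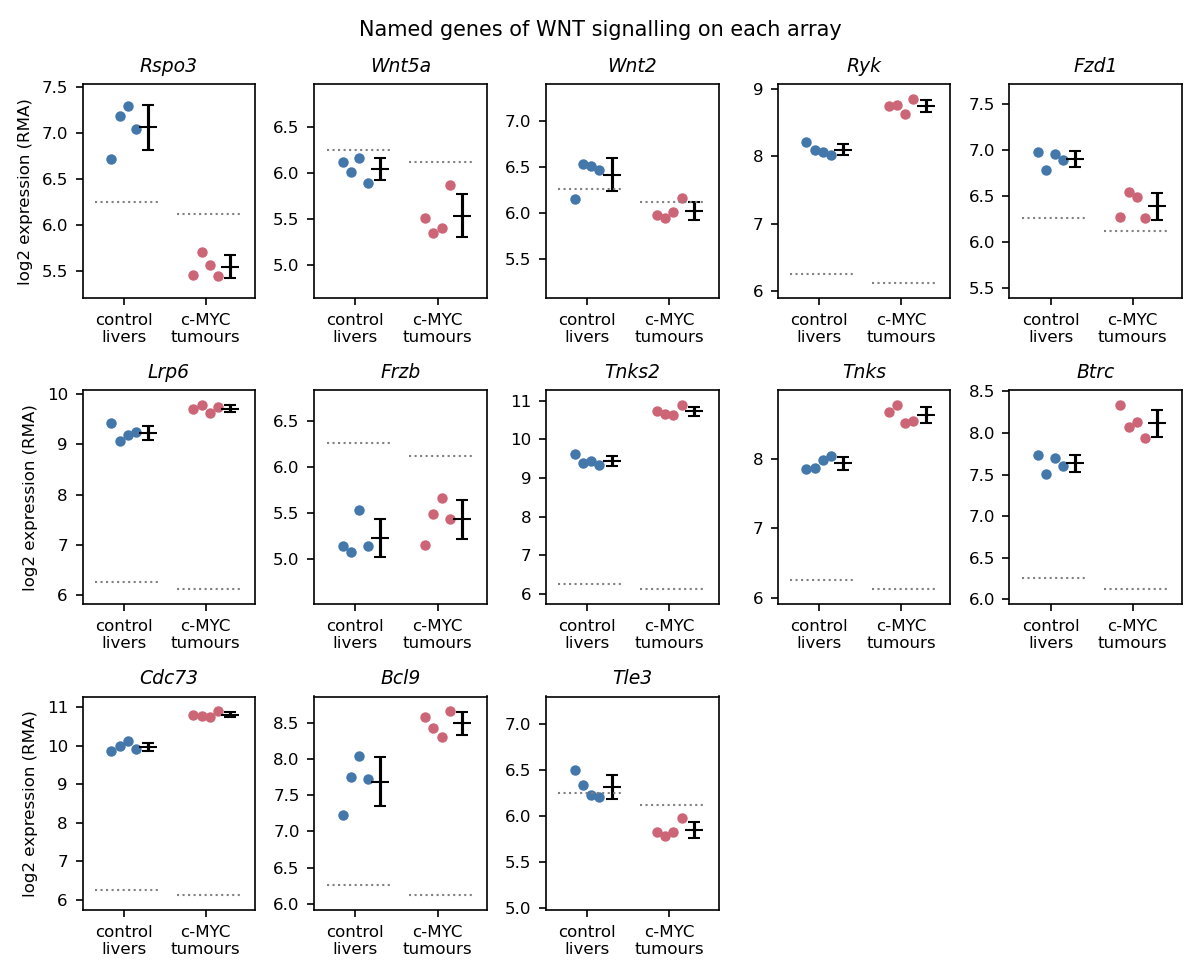
Log2 expression on each array of 13 named genes of WNT supply, reception, antagonism, beta-catenin degradation and nuclear action, drawn as single arrays with the mean ± SD of 4 and dotted background levels of 6.26 and 6.12. Rspo3 falls below background in all 4 tumours, whereas Tnks2 and Cdc73 lie higher in every tumour than in every control.

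Pericentral hepatocyte genes, the metabolic programme that WNT signalling maintains, were lower in 13 of 14 cases, against 12.7% of all genes, and higher in none. Their median log2 change was -1.23, against -0.04 over all genes. Cyp2e1, the ethanol-metabolising cytochrome, read 12.60 to 12.70 in controls and 5.47 to 7.05 in tumours (log2 change -6.38, SE 0.26). Cyp1a2 and Gulo changed by -6.10 (SE 0.24) and -3.32 (SE 0.25), and the Cyp1a2 fall was at least 38.9-fold because its tumour mean was not above background. The tumour means of Cyp2e1 and Gulo, 6.28 and 6.13, lay just above the tumour background of 6.12, so the sizes of these falls are less certain. Glul, the glutamine synthetase confined to the hepatocytes around the central vein, read 9.91, 10.17, 10.27 and 10.59 in control livers 1 to 4 and 9.29, 8.65, 9.24 and 8.86 in tumours 1 to 4. Glul was thus lower in every tumour but stayed far above background. Rhbg, an ammonia transporter, was the member of this list that did not pass, with neither mean above background (log2 change -0.11, SE 0.14, adjusted p = 0.652 in limma).

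Genes of the opposite, periportal zone were not spared. Of 12 listed, 9 were measured, while Ass1, Gls2 and Sds were not analysed here. Of the 9, 7 were lower and 2 higher, against 12.7% and 16.2% of all genes, with a median log2 change of -1.85. Pigr, Cyp2f2 and Pck1 changed by -5.36, -4.81 and -3.27 (SE 0.22, 0.31 and 0.42), with the Pigr fall at least 35.5-fold. The higher genes were Cdh1, which encodes E-cadherin, and Aldh1b1, a mitochondrial aldehyde dehydrogenase. Cdh1 rose 4.35-fold (log2 change 2.12, SE 0.25) and Aldh1b1 3.84-fold (1.94, SE 0.25), with all tumours above all controls. Both zonal lists thus held mostly lower genes, and the difference between the lists was not tested.

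**Figure D3:**
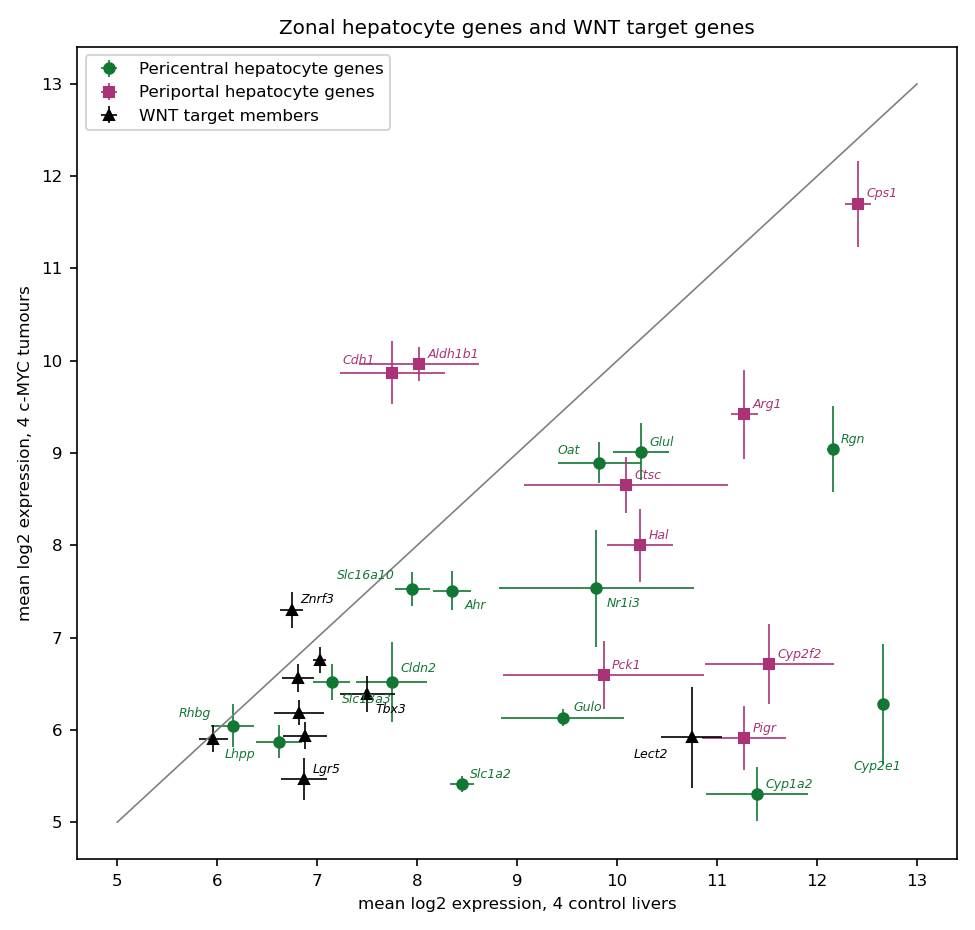
Mean log2 expression in 4 tumours against the mean in 4 control livers for 14 pericentral genes, 9 periportal genes and the 9 WNT target genes, with bars of 1 SD and a grey line of equality. Most genes of both zones lie below the line, Lect2 lies among the zonal genes with large falls, and Cdh1, Aldh1b1 and Znrf3 lie above it.

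WNT targets described in other tissues were called in both directions. Of 11 measured, 1 was higher and 3 lower, 36.4% called against 28.9% of all genes, with a median of -0.19. Ccnd1, cyclin D1, read 7.48 to 8.83 in controls and 6.72 to 6.97 in tumours, and fell 2.21-fold (log2 change -1.14, SE 0.25, adjusted p = 0.0056 in limma). This fall stood beside dividing-cell markers that were all higher, 4 of 4 against 16.2% of all genes. The markers had mean levels of 5.08 to 5.93 in controls and 9.46 to 9.87 in tumours. A link with the Ccnd1 value was not tested. Tcf7l2, also on this list, and Sox9 (log2 change -0.32, SE 0.10, adjusted p = 0.041 in limma) were the other lower genes. The Sox9 call was lost in every fit that left out 1 array except tumour 4 (adjusted p 0.0532 to 0.113) and with the replicate block (0.068). Cd44, an adhesion receptor, was higher (log2 change 0.49, SE 0.13), with an adjusted p of 0.020 in limma that became 0.054 to 0.060 when control liver 2, control liver 4 or tumour 3 was dropped.

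**Figure D4:**
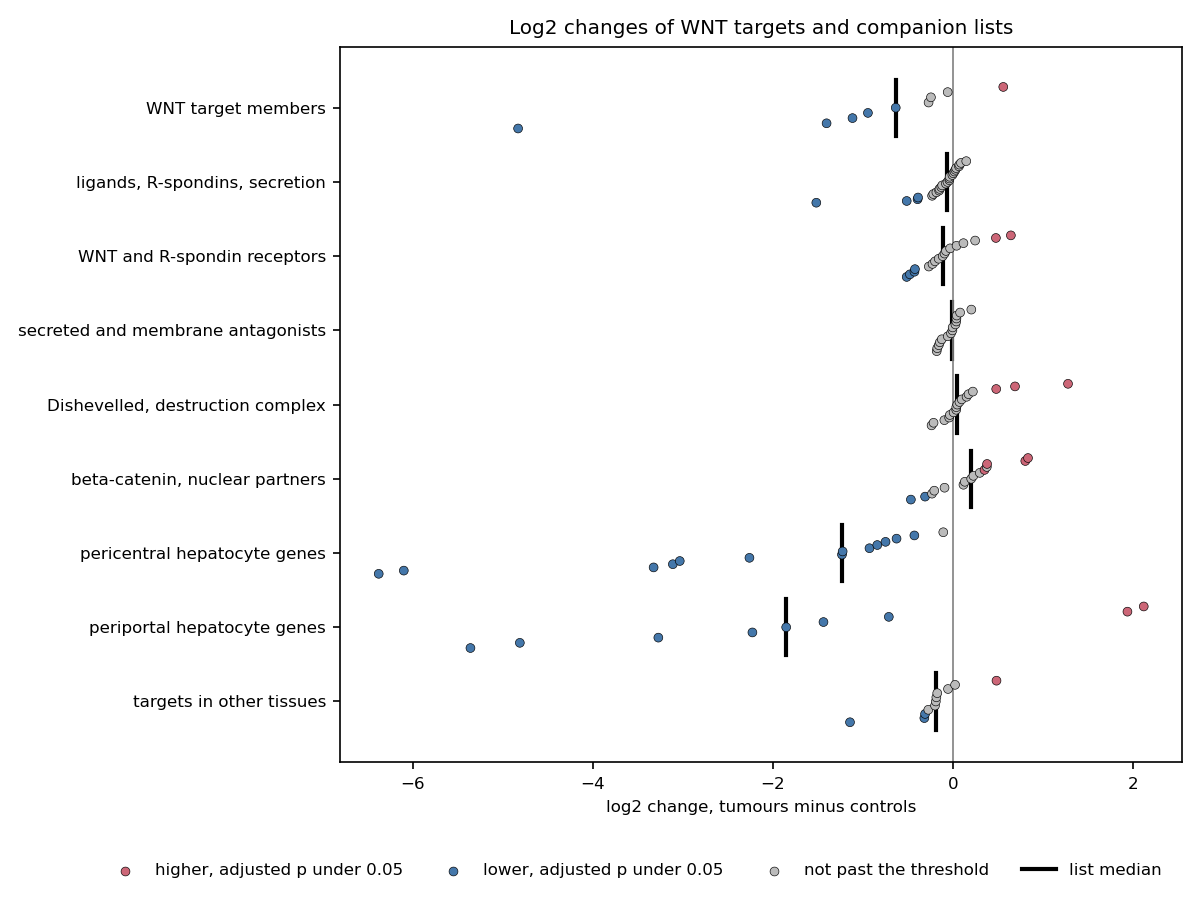
Log2 change, tumours minus controls, of each measured gene of 9 lists, with 1 point per gene coloured by its call at an adjusted p of 0.05 and a black bar for the list median. The WNT target genes and both zonal lists have medians of -0.63, -1.23 and -1.85, while the lists of signalling components have medians between -0.11 and 0.20.

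Control liver 3 differed from the other samples in sex-linked genes, with Xist at 11.89 against 4.86 to 7.12 elsewhere and Y-linked genes at 3.46 to 5.39 against 7.62 to 9.37. High Xist with low Y-linked genes is the pattern of a female sample. No tumour and no other control had it, so the groups were not balanced in this respect. Without control liver 3 every member kept its call and its direction.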

How the data were processed

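Total RNA of 4 control livers and 4 tumours was measured on 8 Affymetrix arrays of the Mouse Gene 1.0 ST design. The deposited table holds 1 log2 value per array for each of 34760 probe sets; per the submitters' processing notes it was made with RMA and R 3.0.2. RMA settings and the genome build are not given in the sources used here. Coordinates belong only to the RefSeq promoters. Array medians were 6.33 to 6.44. Of the probe sets, 21640 had 1 gene symbol in the platform annotation, and the brightest per gene was kept, leaving 19937 genes. Names were updated through a RefSeq table, matching 21553 of the 21640.

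Values were compared as deposited with limma 3.58.1 (lmFit, eBayes) in R 4.3.3, group as the only term, with Benjamini-Hochberg adjustment over all genes at a threshold of 0.05. The fit was tested on simulated data. Python 3.11.15, pandas 2.3.3 and matplotlib 3.10.9 were used. Intervals for log2 changes are limma's and unadjusted. The number of arrays limits the precision.

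The members and lists were chosen with earlier results of these data known. Named were all members; from each list up to 3 called genes that changed most and the most changed of the rarer direction, or, with no call, its most changed gene; and the 3 nearest patterns to each called member. Other genes, such as Glul, Ctnnb1, Lgr4, Wnt9b, Wnt16, Fzd4, Fzd7, Ror1, Tle4, Chd8, Tcf7l2, Rhbg, Aldh1b1, Gsk3b and the endothelial genes, were named after their values were seen. Alternatives were quantile normalisation, subtraction of array medians, array weights, a fit without the dimmest 33.3% of genes, a robust eBayes fit with intensity trend, averaging over probe sets per gene, the replicate block, and leaving out each array.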

Additional observations from a re-analysis of the deposited data

Results flagged for a closer look

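An array stood far from the other 3 of its group, by the gap to its neighbour over the group's range, in 6 of 144 groups of 4 examined for the named genes; chance gives about 1 in 20. Among the WNT target genes this was Lgr5, for which control liver 2 was the lowest control at 6.53, and without it the log2 change was -1.52. Frzb was highest in control liver 3 at 5.53, where it was still not above background. The other arrays concerned genes named only for the likeness of their pattern. Dcstamp was highest among tumours in tumour 4 at 5.83. Chrnb1 was highest among controls in control liver 1 at 5.90, and Marchf2 in control liver 4 at 7.94. Ugt3a2 was lowest among tumours in tumour 3 at 4.63.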

How the results depend on the processing

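Among the WNT target genes, the falls of Lect2, Lgr5, Tbx3, Rnf43 and Notum and the rise of Znrf3 passed the threshold in limma under all 15 alternatives, 8 of which left out 1 array each. Their log2 changes ranged over these from -5.03 to -4.59 for Lect2, -1.52 to -1.31 for Lgr5, -1.24 to -1.04 for Tbx3, -1.01 to -0.88 for Rnf43, -0.71 to -0.52 for Notum and 0.50 to 0.64 for Znrf3. Axin2 also passed after quantile normalisation (-0.28, adjusted p = 0.046), with the dimmest genes left out (-0.27, adjusted p = 0.0485, with fewer genes tested) and with array weights (-0.31, adjusted p = 0.017); with 1 array left out it ran from -0.34 to -0.23. Nkd1 passed under none (adjusted p 0.059 to 0.342). Sp5 ran from -0.11 to 0.0095 with 1 array left out, the positive value without control liver 4, and was too dim for the fit without the dimmest genes. Other signs turned for genes that had not passed: Cdh5 became 0.06 with array weights, 0.06 without control liver 3, 0.11 without tumour 2 and 0.01 without tumour 4 (-0.21 to 0.11 with 1 array left out), Lgr4 became 0.078 without control liver 1 (-0.29 to 0.078), and Wnt9b became -0.016 without tumour 4 (-0.016 to 0.11). With 1 array left out, lower calls ran from 2 to 4 for ligands, 2 to 4 for receptors, 1 to 2 for nuclear partners and 1 to 3 for targets of other tissues, and higher calls from 0 to 1 for the last. Lower ligands numbered 2 without the dimmest genes, lower receptors 2 with medians subtracted, lower destruction complex genes 1 after quantile normalisation, and lower nuclear partners 1 with medians subtracted, 1 with the intensity trend and 1 with the replicate block. Same-numbered samples did not deviate together (correlations -0.32 to 0.055), so the numbers were not taken as pairs; with the replicate block, all genes past the threshold numbered 5007 in place of 5757, and the block left 1 lower target of other tissues, and kept every call among the WNT target genes. The causes of these changes were not tested. Of all genes, 7072 had neither mean above background, where a difference is hard to detect.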
